A study of Mus musculus with 2 samples.

Results

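The antioxidant and glutathione defence genes, 45 in all, were followed in 2 macrophage populations sorted from the injured mouse heart. They were taken by symbol from the platform's annotation, as probe sets with a single gene symbol, out of 19505 genes with a value. Of the 45 genes, 42 had a value, each from 1 probe set, and Ggt1, Prdx5 and Prdx6 had none and were not analysed here. The data were 1 Clariom S array of MHCII+ macrophages and 1 of MerTK- macrophages. Both came from the hearts of 10-week-old male wild-type C57BL/6 mice after ischemia–reperfusion (IR), in which a coronary artery is closed for a time and blood flow then returns. The study calls the mice WT, a name it also gives to Cre-negative littermates with a floxed Atf3 gene. Cells were gated as CD45+CD11b+ before the populations were separated, and each array drew on the pooled cells of several hearts. The time from IR to sorting is not given for these arrays in the sources used here. The comparison asks which genes differ between a population that the study counts among the MerTK+ resident macrophages and the MerTK- macrophages. The sort described for MHCII+ cells names no MerTK gate.

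There was 1 array per population and so no replicate error. No test, SD or p-value is given, and the precision is limited by the number of arrays. Values are log2 intensities as deposited, and where a pair is given the MHCII+ value comes first and the MerTK- value second. Differences are log2 MHCII+ minus log2 MerTK-, and folds are on the same deposited scale. A gene is called past 2-fold towards the population in which it is at least that much higher. The floor is the 95th percentile of 1450 olfactory, vomeronasal and taste receptor genes, taken here as background. It stood at 4.23 for MHCII+ and 4.67 for MerTK- macrophages. A gene counts as above the floor where the higher of its values exceeds the floor of that array, and is then also called detected. For a lower value that does not clear its array's floor, the floor takes its place in the fold, which is then written "at least".

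The labels were read against their defining genes, and markers of other cells were read beside them. All 6 genes of MHC class II presentation, listed after the values were seen, were past 2-fold towards MHCII+, with 16.7 and 8.39 for H2-Aa and 8.17 and 4.79 for Ciita, their master regulator. Mertk had values of 8.77 and 5.97, and 12 of 13 resident macrophage markers were past 2-fold towards MHCII+, led by Folr2 (5.90) and Fcrls (5.63) by log2 difference. All 14 detected neutrophil markers were past 2-fold towards MerTK- (12 with the floor in place of lower values). Their median difference was -1.75, led by Ngp (-3.54) and Wfdc21 (-2.74). Their median log2 level was 13.5 (MHCII+) and 15.3 (MerTK-), Camp was not above the floor and Ly6g had no value. Of 9 detected cardiomyocyte markers, 5 were past 2-fold towards MerTK-, led by Myl2 and Tnnt2 (-2.21 and -2.07). Of 8 detected natural killer cell markers, 7 were past 2-fold towards MerTK- (6 with the floor in place of lower values), among them Gzma (-7.84) and Nkg7 (at least 6.12-fold), and 1, Klrd1, was past it towards MHCII+ (at least 4.71-fold). Of the endothelial markers, 3 of 6 were past 2-fold towards MerTK-, led by Fabp4 and Emcn (-1.89 and -1.15), as were 2 of 4 fibroblast markers, Dcn (-1.75) and Col1a1 (at least 2.23-fold). Dendritic cell markers were mixed. Of 6 detected, 3 were past 2-fold towards MHCII+, namely Ccl17 (27.3-fold), Cd209a (at least 15.4-fold) and Ccl22 (at least 14.0-fold), and 1, Itgae, was past 2-fold towards MerTK- on the raw values (at least 1.47-fold), while Flt3, Zbtb46, Xcr1 and Clec9a were not above the floor. Recruited monocyte markers were mostly less than 2-fold apart (8 of 9), led by Hp (-1.39) and by Ccr2, which had the higher value in MHCII+ macrophages (16.1 and 15.2). Few B and T cell markers were detected (2 of 4 and 2 of 5 measured). Both detected B cell markers, Cd79b and Ms4a1, were past 2-fold towards MHCII+ on the raw values (2.20 and 1.73). With the floor in place of lower values they were at least 1.81-fold and at least 1-fold higher. The detected T cell markers, Cd3d and Cd4, were less than 2-fold apart. The shares of cells and the RNA in each cell cannot be told apart in such bulk samples. The 4 hybridization controls, transcripts added during preparation, had a median difference of -0.93, while genes above the floor had a median difference of 0.15.

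Cells make superoxide and hydrogen peroxide during respiration, and phagocytes make them on purpose through the NADPH oxidase. Superoxide dismutases turn superoxide into hydrogen peroxide, which catalase, glutathione peroxidases and peroxiredoxins remove. The peroxidases draw their electrons from glutathione or thioredoxin, which glutathione reductase and the thioredoxin reductases restore at the expense of NADPH. Many of these genes answer to the transcription factor NRF2, which KEAP1 holds in check until oxidants or electrophiles modify it.

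The antioxidant genes were split between the populations. Glutathione reductase, the modifier subunit of glutathione synthesis and the microsomal transferases Mgst1 and Mgst2 were higher in MerTK- macrophages, as was the methionine sulfoxide reductase Msrb1. The peroxiredoxins Prdx2 and Prdx3, catalase, the sestrin Sesn1 and the transferase Gstp1 were higher in MHCII+ macrophages. Of 38 members above the floor, 5 were past 2-fold towards MHCII+ and 5 towards MerTK- macrophages, and 28 were closer than that. Over all 10518 genes above the floor the shares were 13.4% and 6.88%, beside 13.2% each for the members. Their differences ran from -2.0 (Mgst1) to 1.72 (Sesn1) around a median of 0.13, close to the 0.15 of all genes above the floor. The direction counts depend on how the arrays are scaled. They were 4 and 8 after centring on genes above the floor, where the shares of all genes were 10.1% and 9.69%. Centring on housekeeping genes gave 2 and 11 (5.45% and 18.6% of all genes). Centring on the hybridization controls gave 20 and 1 (54.4% and 0.66% of all genes).

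**Figure D1:**
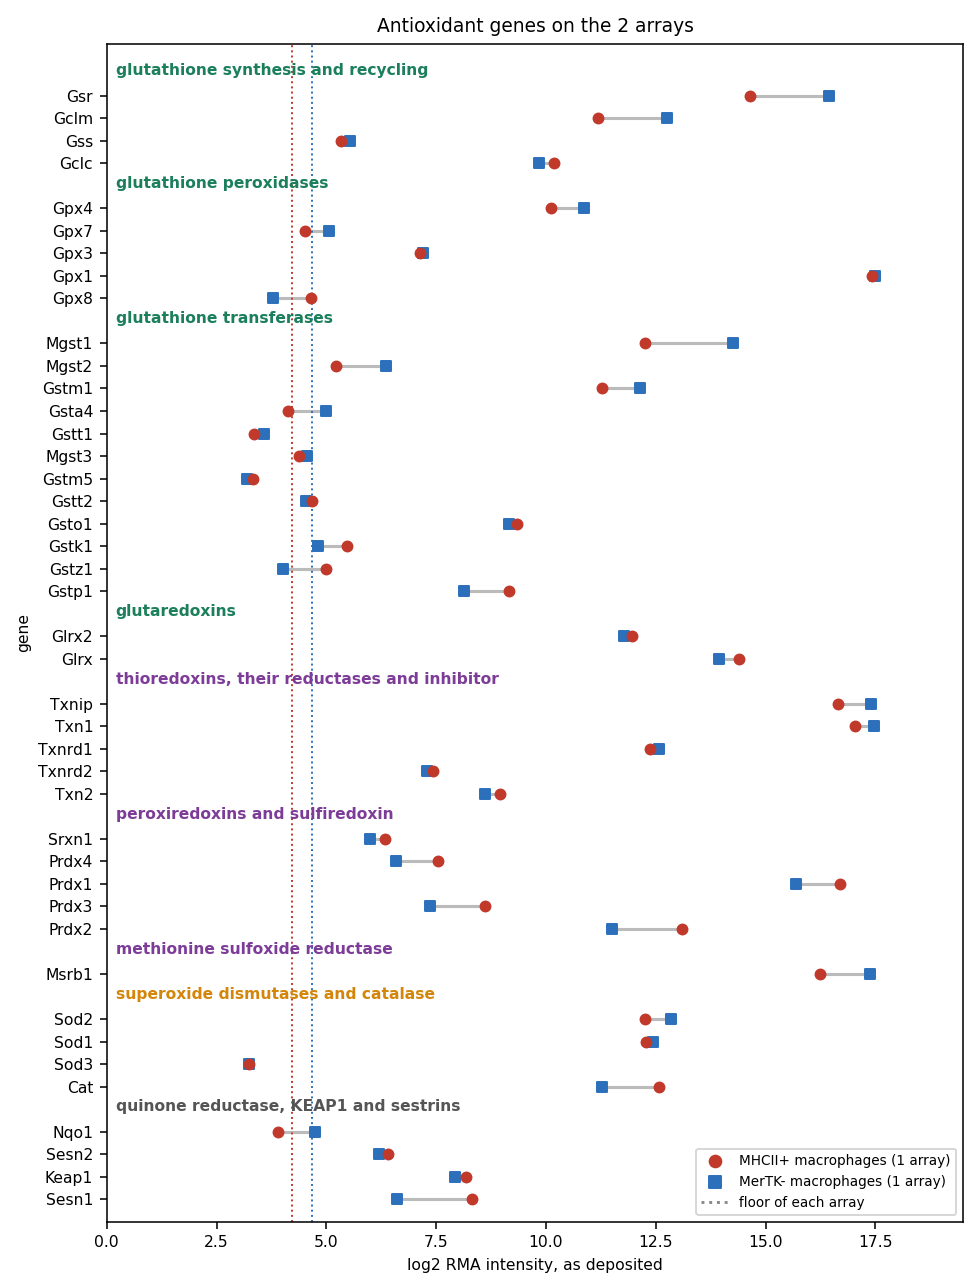
Log2 intensity of the 42 measured antioxidant genes (x axis) in MHCII+ (circles) and MerTK- macrophages (squares), grouped by class, with the floor of each array as a dotted line. The widest gap is that of Mgst1 (12.3 and 14.3), and Gpx1 (17.4 and 17.5) shows almost none.

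The antioxidant response element, the sequence that NRF2 binds with its small MAF partners, was looked for as TGACNNNGC on both strands in the stretch from 250 bases before to 50 after each gene start. RefSeq promoters of build GRCm38.p6 were found for 39 of the 45 members, in 55 windows. Gclc, Gsr, Gsta4, Gstt2, Prdx6 and Sod3 had no promoter entry and were not searched. Of the member windows 11 (20%) held the letters, beside 12.4% of all 32851 promoter windows of the same length. They belonged to 9 members (23.1%, against 14.0% of all genes with a promoter). Median GC content was 58.7% for members and 52.7% for all promoters. The AP-1 site was looked for as TGANTCA, since ATF3, the factor at the centre of the study, is an AP-1 partner. It stood in 7 of the 55 windows (12.7%, against 7.81% of all) and in 6 members (15.4%, against 8.97% of all genes). The CRE, TGACGTCA, stood in 1 window, of Ggt1 (1.82%, against 1.79%). A match is a description of the letters and not a bound site. In the sites below, shown because these measured members carry the letters in the window, capitals mark the antioxidant response element, or its complement where the match lies on the other strand, with 10 bases on each side. The coordinates are those of the whole window, and the strand is that of the gene.

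Gclm (higher in MerTK- macrophages, chr3:122245307-122245606, plus strand): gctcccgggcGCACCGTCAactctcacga
Mgst1 (higher in MerTK- macrophages, chr6:138140277-138140576, plus strand): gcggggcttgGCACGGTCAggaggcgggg
Prdx1 (leaning to MHCII+ macrophages, chr4:116685349-116685648, plus strand): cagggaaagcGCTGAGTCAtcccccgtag
Srxn1 (less than 2-fold apart, chr2:152105274-152105573, plus strand): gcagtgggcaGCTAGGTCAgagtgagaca
Txnrd1 (less than 2-fold apart, chr10:82858956-82859255, plus strand): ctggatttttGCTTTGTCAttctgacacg
Sod1 (less than 2-fold apart, chr16:90220512-90220811, plus strand): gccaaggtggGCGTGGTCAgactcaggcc
Sesn2 (less than 2-fold apart, chr4:132510407-132510706, minus strand): cgcagcgggcTGACAGAGCcgggcgagcg

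Gstm5, not above the floor, also held the element, and so did Ggt1, which had no value. Of the detected members with the element, only Gclm and Mgst1 were past 2-fold, both towards MerTK- macrophages (-1.57 and -2.0). The others were less than 2-fold apart, from -0.20 for Txnrd1 to 0.99 for Prdx1. None of the 5 members past 2-fold towards MHCII+ macrophages held the element in its windows, beside 14.0% of all genes with a promoter. So few members give no contrast, and Gsr, past 2-fold towards MerTK-, was not searched. The AP-1 letters stood in Gstp1, past 2-fold towards MHCII+, and in Mgst2, past it towards MerTK- macrophages. The Prdx1 promoter holds 1 AP-1 site that overlaps its antioxidant response element and another further upstream. Gstm5 and Srxn1 also hold both kinds of site. Prdx1 is shown whole as the member of the 3 in which the motifs overlap, with the matched letters of either motif in capitals.

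Prdx1 (chr4:116685349-116685648, plus strand): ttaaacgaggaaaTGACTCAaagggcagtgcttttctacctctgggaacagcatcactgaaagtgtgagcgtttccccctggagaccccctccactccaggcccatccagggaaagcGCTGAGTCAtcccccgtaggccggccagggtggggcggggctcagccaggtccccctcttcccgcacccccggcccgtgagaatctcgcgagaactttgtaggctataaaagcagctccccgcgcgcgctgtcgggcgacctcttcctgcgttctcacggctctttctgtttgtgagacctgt

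Genes that make and recycle glutathione leaned to MerTK- macrophages as deposited, though centring on the hybridization controls moved their median to 0.05. Of 4 above the floor, 2 were past 2-fold that way and none the other way, with a median difference of -0.89. Over all genes above the floor, 6.88% were past 2-fold towards MerTK- and 13.4% towards MHCII+. Gsr, glutathione reductase, which returns oxidized glutathione to its reduced form, measured 14.7 (MHCII+) and 16.4 (MerTK-), a 3.46-fold difference. Gclm, the modifier subunit of glutamate–cysteine ligase, whose element is printed above, had values of 11.2 and 12.8 and was 2.97-fold higher in MerTK- macrophages. Its catalytic partner Gclc did not follow, with values of 10.2 and 9.84, so that the differences of the 2 subunits lay 1.91 apart on the log2 scale. A gap of this kind within the arrays is the same under any constant shift between them. Gss, glutathione synthetase, had low values of 5.34 and 5.54. Neutrophil markers were higher on the MerTK- array, by a median of -1.75 against -1.79 for Gsr, and their part in these differences was not tested.

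Glutathione peroxidases, which reduce peroxides with glutathione, were all less than 2-fold apart on the deposited values. Gpx1, the main cytosolic peroxidase, lay far above the floor on both arrays, at 17.4 and 17.5 and a difference of -0.06. Gpx4, which repairs lipid hydroperoxides in membranes and restrains ferroptosis, had values of 10.1 and 10.9, a 1.68-fold difference towards MerTK- macrophages. The secreted peroxidase Gpx3 had values of 7.13 and 7.21. Gpx7 (4.52 and 5.05) and Gpx8 (4.64 and 3.78), of the endoplasmic reticulum, lay close to the floor. The median of the 5 was -0.08.

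Glutathione transferases, which join glutathione to reactive compounds, held the widest difference of the members. Mgst1, a membrane transferase of mitochondria and the endoplasmic reticulum, measured 12.3 (MHCII+) and 14.3 (MerTK-), a 3.99-fold difference. Mgst2, a related enzyme that can also make leukotriene C4, had values of 5.21 and 6.36 (2.21-fold, the same direction). Gstm1, of the cytosolic mu class, had values of 11.3 and 12.1. It was 1.82-fold higher in MerTK- macrophages as deposited (difference of 0.07 after centring on the hybridization controls). Gstp1, of the pi class, went the other way, with 9.17 and 8.13, a 2.06-fold difference that was among the smallest past the threshold. Its near copy Gstp2 (8.71 and 8.12) may share its RNA, as other mu class genes may share that of Gstm1.

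Several transferases were hardly detected. Gstm5, Gstt1 and Mgst3 were not above the floor. Gstz1 (4.99 and 4.0), Gsta4 (4.12 and 4.99) and Gstt2 (4.67 and 4.54) had a lower value that did not clear it, so that Gstz1 was at least 1.24-fold higher in MHCII+ and Gsta4 at least 1.69-fold higher in MerTK- macrophages. Gstk1, found in mitochondria and peroxisomes, had values of 5.48 and 4.80, and Gsto1, of the omega class, 9.34 and 9.15. The glutaredoxins, which use glutathione to release it from proteins, were less than 2-fold apart, with 14.4 and 13.9 for Glrx and 12.0 and 11.8 for the mitochondrial Glrx2. Over the 20 glutathione genes above the floor, 1 was past 2-fold towards MHCII+ and 4 towards MerTK-, and the median was -0.07. The shares over all genes above the floor were 13.4% and 6.88%.

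**Figure D2:**
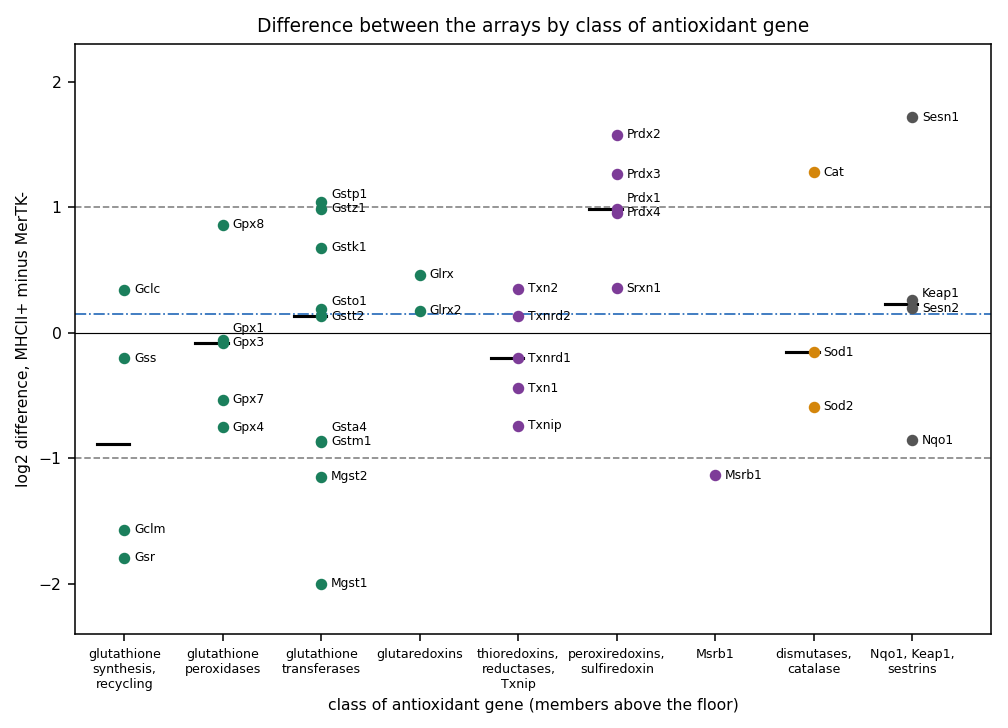
Log2 difference of the 38 antioxidant genes above the floor (y axis, MHCII+ minus MerTK-) in each class. Dots are genes, black bars medians of classes with over 2 genes, dashed lines 2-fold, and the dash-dotted line is the median of all genes above the floor (0.15), and the 5 peroxiredoxin and sulfiredoxin genes all lie above 0 (4 of 5 after centring on housekeeping genes).

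The peroxiredoxins, thiol peroxidases that take electrons from thioredoxin, leaned to MHCII+ macrophages. All 4 measured peroxiredoxins and Srxn1 had the higher value there, except that Srxn1 changed side after centring on housekeeping genes. As deposited, 2 of the 5 were past 2-fold and the median was 0.99, and across the other 5 scalings the median ran from 0.54 to 1.92. Over all genes above the floor, 13.4% were past 2-fold towards MHCII+ macrophages and 6146 of 10518 had the higher value there. The 11 housekeeping genes had a median of 0.45. Prdx2, a cytosolic enzyme that is abundant in red blood cells, measured 13.1 (MHCII+) and 11.5 (MerTK-), a 2.98-fold difference. Prdx3, its mitochondrial relative, had values of 8.62 and 7.35 (2.40-fold). Prdx1 (16.7 and 15.7, 1.98-fold) and Prdx4 of the secretory pathway (7.54 and 6.58, 1.94-fold) fell just short of 2-fold. Sulfiredoxin, encoded by Srxn1, which rescues overoxidized peroxiredoxins, had values of 6.34 and 5.99. Among erythroid markers only 4 of 10 had a value, and of these only Slc4a1 was above the floor, with 5.89 and 6.46.

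The thioredoxin system that feeds the peroxiredoxins had a median of -0.20, but 0.73 once the arrays were centred on the hybridization controls. Txn1, cytosolic thioredoxin, had values of 17.0 and 17.5 and its reductase Txnrd1 12.4 and 12.6, with differences of -0.44 and -0.20. Their mitochondrial counterparts Txn2 (8.96 and 8.61) and Txnrd2 (7.43 and 7.30) had differences of 0.35 and 0.13. The sides of all 4 depended on the scaling. Txnip, which binds and inhibits thioredoxin and is sensitive to glucose, had values of 16.7 and 17.4, a 1.67-fold difference towards MerTK- macrophages. The difference of Prdx1 exceeded that of Txn1 by 1.43, and that of Prdx3 exceeded that of Txn2 by 0.91. Msrb1, a selenoprotein that reduces oxidized methionine with the help of thioredoxin, had values of 16.2 and 17.4 and was 2.20-fold higher in MerTK- macrophages, beside the neutrophil markers named above, whose part was not tested. Over the 11 genes of the thioredoxin and peroxiredoxin group the median was 0.35, with 2 past 2-fold towards MHCII+ and 1 towards MerTK-. The shares over all genes above the floor were 13.4% and 6.88%.

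Of the superoxide and peroxide genes, catalase alone was at least 2-fold apart. Of all genes above the floor, 13.4% were past 2-fold towards MHCII+ and 6.88% towards MerTK-. Cat, the peroxide-splitting enzyme of peroxisomes, measured 12.6 (MHCII+) and 11.3 (MerTK-), a 2.43-fold difference. Sod1, the cytosolic dismutase, had values of 12.3 and 12.4, and Sod2, the mitochondrial dismutase that inflammatory signals induce, 12.3 and 12.9 (1.51-fold, towards MerTK-). After centring on the hybridization controls the differences of Sod1 and Sod2 were 0.78 and 0.34. Sod3, the secreted dismutase, was not above the floor in either population, with 3.25 and 3.23. The median of the 3 genes above the floor was -0.16, and the differences of Cat and Sod2 lay 1.87 apart.

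The medians of the glutathione (-0.07), thioredoxin and peroxiredoxin (0.35) and superoxide and peroxide (-0.16) groups lay closer together than those of some classes inside them. Among classes with over 2 genes, peroxiredoxins and sulfiredoxin had the highest median and glutathione synthesis and recycling the lowest. These 2 medians differed by 1.87, and the widest genes of the 2 classes, Prdx2 and Gsr, by 3.37. The synthesis and recycling class was itself split, with Gclc (0.34) and Gss (-0.20) apart from Gclm (-1.57) and Gsr (-1.79). All these gaps carry no replicate error and hold for these arrays. The order of the 3 group medians also rested on how members were grouped. With the glutathione peroxidases and peroxiredoxins counted among the superoxide and peroxide genes, the medians were 0.13, -0.20 and 0.40.

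Of the members outside these groups, Sesn1 had the widest difference towards MHCII+ macrophages. Sesn1 encodes a sestrin, a stress protein induced by p53 that restrains mTORC1, and its values were 8.32 and 6.60 (3.29-fold). Its relative Sesn2 had values of 6.40 and 6.20. Keap1, the sensor that targets NRF2 for breakdown, had values of 8.19 and 7.93. Nqo1, the quinone reductase often read as an NRF2 target, lay near the floor, with 3.90 in MHCII+ and 4.75 in MerTK- macrophages, at least 1.44-fold higher in the latter.

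**Figure D3:**
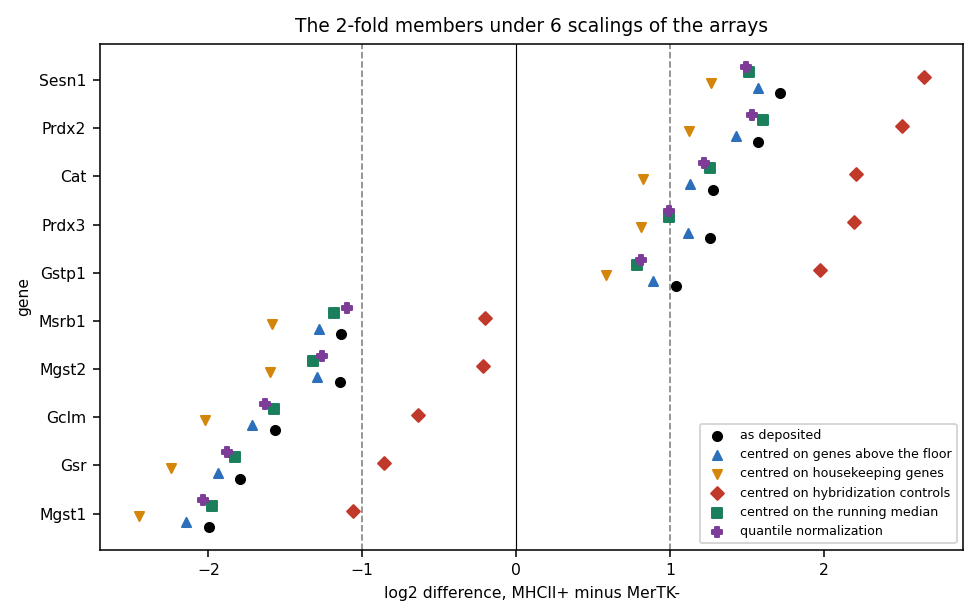
Log2 difference (x axis, MHCII+ minus MerTK-) of the 10 members past 2-fold, as deposited and under 5 other scalings of the arrays; dashed lines mark 2-fold. Every gene keeps its side of 0 under each scaling, and only Mgst1, Prdx2 and Sesn1 stay past 2-fold under all of them, while Gstp1 falls to 0.59 after centring on housekeeping genes.

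The members were also read by features that had no part in their choice, with lists drawn up after their values were known. Among 5 mitochondrial enzymes (Txn2, Txnrd2, Prdx3, Sod2 and Glrx2) the median difference was 0.18, and among their cytosolic counterparts it was -0.16. Within the pairs the mitochondrial gene leaned more to MHCII+ macrophages for Txn2, Txnrd2 and Prdx3 (by 0.79, 0.33 and 0.27) and less for Sod2 and Glrx2 (by -0.44 and -0.28). The 6 measured selenoproteins (Gpx1, Gpx3, Gpx4, Txnrd1, Txnrd2 and Msrb1) had a median of -0.14, and 5 of them had the higher value in MerTK- macrophages, only Msrb1 by at least 2-fold. Over all genes above the floor, 4369 of 10518 had the higher value in MerTK- macrophages.

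Other genes of the same chemistry were read from fixed lists. Beside all counts from these lists stand the shares of all genes above the floor, 13.4% towards MHCII+ and 6.88% towards MerTK-. NRF2 and its partners were less than 2-fold apart in all 11 cases, with a median of -0.12. Nfe2l2, which encodes NRF2, had values of 8.28 and 7.60, and Bach1, a repressor at the same elements, 10.9 and 11.5. Of 16 other detected NRF2 target genes, 4 were past 2-fold towards MHCII+ and 1 towards MerTK-. The 4 were Akr1b8 (7.53-fold), an aldo-keto reductase, Nqo2 (4.27-fold), a relative of Nqo1, Blvrb (3.48-fold), of heme breakdown, and Abcc1 (2.58-fold), an exporter of glutathione conjugates. The exception was Osgin1, a stress-induced growth inhibitor, with 10.5 and 12.6 (4.30-fold higher in MerTK- macrophages). Hmox1, heme oxygenase 1, had values of 17.6 and 16.9. NRF2 targets thus lay on both sides, Gclm and Osgin1 with MerTK- and Akr1b8 and Nqo2 with MHCII+ macrophages.

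Genes that supply substrates were mostly less than 2-fold apart. Of 11 detected genes of cystine and NADPH supply, 1 was past 2-fold towards each population. The shares over all genes above the floor were 13.4% (MHCII+) and 6.88% (MerTK-). G6pdx and Nnt, also on the list, had no value. Slc7a11, the cystine importer that feeds glutathione synthesis, measured 14.2 (MHCII+) and 15.9 (MerTK-) (3.39-fold). Its partner chain Slc3a2, shared with other transporters, had 17.3 and 16.9. Idh2, a mitochondrial source of NADPH, had values of 9.76 and 8.38 and was 2.61-fold higher in MHCII+ macrophages. Slc7a11, Gsr, Gclm, Mgst1 and Msrb1 had differences from -2.0 to -1.14, beside -3.54 to -1.05 for the neutrophil markers, and the part of neutrophils in them was not tested.

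Among the other glutathione enzymes, 2 of 9 above the floor were past 2-fold towards MHCII+ and 1 towards MerTK-, and 14 of the 23 measured were not above the floor. Hpgds, the glutathione-dependent synthase of prostaglandin D2, had values of 9.31 and 5.32, a 15.9-fold difference that was wider than that of any member. Gstm4 was at least 2.20-fold higher in MHCII+ and Ggt5, which cleaves glutathione conjugates such as leukotriene C4, 2.07-fold higher in MerTK- macrophages. Of 11 further thioredoxin, glutaredoxin and repair genes, Park7, a sensor of oxidants, was 2.90-fold higher in MHCII+ macrophages and Nxn at least 1.86-fold lower there. The phagocyte NADPH oxidase, the chief source of superoxide in these cells, had all 6 measured genes less than 2-fold apart with a median of -0.32, and its catalytic subunit Cybb had values of 17.5 and 17.0. Nos2, the inducible nitric oxide synthase, was 2.02-fold higher in MerTK- macrophages (8.99 and 10.0).

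**Figure D4:**
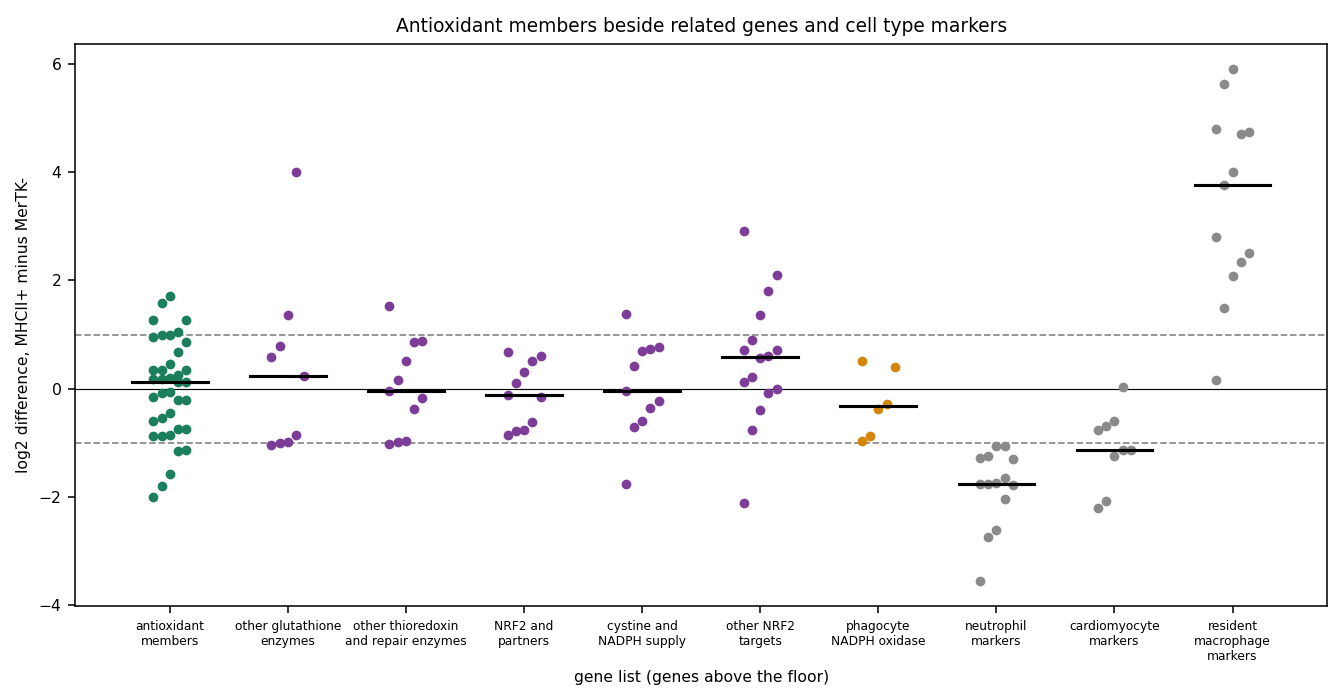
Log2 difference (y axis, MHCII+ minus MerTK-) of genes above the floor in the antioxidant set, 5 related lists, the phagocyte NADPH oxidase and 3 marker lists. Dots are genes, bars medians and dashed lines 2-fold; the neutrophil markers all lie below -1 and the antioxidant genes spread from -2.0 to 1.72.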

How the data were processed

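Total RNA of each sorted population was hybridized to a Clariom S mouse array (an older array is named in the series description, but the probe sets match Clariom S). The authors deposited log2 intensities made by Robust Multichip Analysis under the manufacturer's defaults and scaled globally. Affymetrix Expression Console appears in the submitters' processing notes without a version, and the sources used here give no genome build. These log2 values ran from 1.01 to 19.8 (MHCII+) and from 0.89 to 19.4 (MerTK-), with 337 and 331 probe sets above 16, the log2 limit of a 16-bit scanner, and 5 members above it on each array. Values were thus moved after the scan, and whether the scale was also stretched is unknown.

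Of 28846 probe sets, 19572 carry a single gene symbol. Symbols were updated by Entrez ID (RefSeq, GRCm38.p6), and 55 genes had more than 1 probe set, of which the brightest on average was kept. Python 3.11.15, numpy 2.4.6, pandas 2.3.3 and matplotlib 3.10.9 were used, and the counting of differences was tested on simulated data. The 2-fold threshold is that of the study's methods. Alternatives changed the floor, the scaling, the handling of probe sets, the threshold and the grouping. Every measured member could be named, members past 2-fold and the 2 brightest of each group were described in full, and of the other lists up to 4 genes at least 2-fold apart and a few fixed genes, of marker lists the 2 widest differences. Lists of mitochondrial, selenoprotein and MHC class II genes were added after the values were seen. The members and lists were chosen with earlier results of these data known. Protein sequences were not used here.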

Additional observations from a re-analysis of the deposited data

How the results depend on the processing

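Of the recomputed counts and medians over the members, 48 stayed within 1.5 times (counts) or 1.5-fold (medians) of the reported value and 13 did not. The counts past 2-fold towards MHCII+ and towards MerTK- macrophages, 5 each as deposited (13.4% and 6.88% of all genes), became 2 and 11 after centring on housekeeping genes (5.45% and 18.6% of all genes), 20 and 1 after centring on the hybridization controls (54.4% and 0.66%), and 10 and 11 at a threshold of 1.5-fold (27.5% and 16.8%). Centring on genes above the floor gave 8 in MerTK- macrophages (9.69%), as Gsta4, Gstm1 and Nqo1 crossed the threshold. With the floor of negative-control probe sets (9.03 and 9.66), which leaves 20 members, 3 were past 2-fold towards MHCII+ and 4 towards MerTK- (15.8% and 8.17% of all genes), and the thioredoxin and peroxiredoxin median was -0.32. After centring on the hybridization controls the medians were 1.07 over all members, 0.87 for the glutathione, 1.29 for the thioredoxin and peroxiredoxin and 0.78 for the superoxide and peroxide group. The small median over all members turned negative under several settings, to -0.32 after centring on housekeeping genes, -0.18 with the negative-control floor, -0.05 on the running median, -0.02 both after quantile normalization and with low values raised to the floor, and -0.01 after centring on genes above the floor, and that of the thioredoxin and peroxiredoxin group turned to -0.10 after centring on housekeeping genes. Of the 10 members past 2-fold, none changed direction in any alternative that kept it above the floor. Gsr, Gclm, Mgst2 and Msrb1 dropped under 2-fold only after centring on the hybridization controls and Cat only after centring on housekeeping genes, Prdx3 and Gstp1 under 3 and 4 alternatives. Mgst2, Prdx3 and Sesn1 were not above the negative-control floor, so their calls were lost under that setting. Taking the mean over probe sets changed nothing for the members. No paired analysis was possible because each group holds 1 array, and no replicate could be left out. Genes near the floor, such as Nqo1, Gpx8 and Gstz1, have little signal over background, which limits their folds.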

Other observations

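Related gene groups outside the members were read from lists added after the member values were known, with no test. Metallothioneins, which bind metals and scavenge radicals, leaned to MHCII+ macrophages: Mt2 had values of 14.2 and 11.8 (5.24-fold) and Mt1 18.1 and 17.5. Of 16 other detected selenoprotein and selenium-handling genes, 4 were past 2-fold towards MHCII+ and none towards MerTK-. These were Selenoi (3.29-fold), Selenop, the plasma carrier of selenium (16.1 and 15.0, 2.14-fold), Selenof (2.13-fold) and Sepsecs, which was at least 1.56-fold higher against the floor. Their median was 0.30, beside -0.14 for the 6 selenoproteins among the members. Of 7 genes of oxidative protein folding, the disulfide isomerases Pdia6 (3.17-fold) and Txndc5 (2.10-fold) were past 2-fold towards MHCII+, and Ero1a, the oxidase that drives disulfide formation, leaned the other way (12.6 and 13.4). The shares for all genes above the floor, 13.4% and 6.88%, stand beside these counts, and all of them move with the scaling of the arrays as the members do.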
